A study of Astyanax mexicanus with 12 samples.

Results

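Of the 683 mature miRNAs counted in embryos of *Astyanax mexicanus*, 49 stood high in the Molino cave morph alone. They were picked by their own levels. CPM, the share of a miRNA in all counts of its library times 1000000, was averaged over the 3 libraries of each morph, and 0.5 CPM was added before taking log2. The 4 morph values of a miRNA were then put in order, and it was kept when the widest gap between neighboring values was at least 0.7 and left Molino alone above it. A mean count of at least 10 over the 12 libraries was also required, which 503 miRNAs met, and the 49 made up 9.74% of these and 7.17% of all. The gap below Molino is called the step here, and 1 unit of it is a 2-fold difference in the level plus 0.5 CPM. Since the steps chose the miRNAs, they are given as a description and were not tested.

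Small RNA was sequenced from whole wild-type (WT) embryos at 24 hours post fertilization (hpf) of 4 morphs. Surface fish are the eyed river form, and the cave forms Pachón, Tinaja, and Molino are called after the caves they come from. The labels give no treatment and no introduced allele, and each morph was represented by 3 libraries. Neither the labels nor the methods state whether the 3 libraries of a morph came from separate clutches or from 1 pool, so the SDs and p-values may cover technical spread only. Because whole embryos were used, a higher level may stand for more of the cells that make a miRNA or for more of it per cell, and these cannot be told apart.

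miRNAs are short RNAs cut from hairpin precursors. An Argonaute protein holds the mature strand, and the bases near its 5′ end, the seed, pick out messenger RNAs, whose protein output then drops. In fish embryos they are known for clearing maternal mRNAs and for shaping muscle, nerve, and skin as these tissues form. The names used here carry no such knowledge. The miRNAs are numbered from 1 to 683 without gap or repeat, so a number such as that of astmex-miR-205 or astmex-miR-430 is a serial number and is not evidence of kinship with the same-numbered family of other vertebrates. Mature sequences were not analysed here, and no function, seed, or tissue is therefore given for a member, nor could the tissue be checked against marker miRNAs.

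The libraries held 5539157 to 15279059 counts on all miRNAs, and those of Molino 7683993 to 8275406, inside the range of the other morphs. In CPM, 3 counts were 0.196 in the deepest library and 0.542 in the shallowest, and limits at this level cover counting error only. Over the 503 miRNAs, the median difference between Molino and the mean of the other morphs was −0.05 on the log2 scale. Higher and lower levels in Molino thus about balanced, which does not make the levels of single miRNAs equal. Of the 503, 247 had a gap of at least 0.7 between morphs in some pattern.

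The 49 miRNAs together took 0.268% ± 0.0210 of the counts in Molino (SD, n = 3), against 0.0506% ± 0.00283 in surface fish, 0.0473% ± 0.00175 in Pachón, and 0.0399% ± 0.00601 in Tinaja. They were thus a small part of the miRNA pool in every morph. Their summed level was 2879, 2711, and 2462 CPM in the 3 Molino libraries and 360 to 525 CPM in the 9 others. The rule chose the members from these same libraries for being high in Molino, so the direction of this difference was fixed by the choice. The 5 most abundant members made up 57.9% of the sum in Molino and the first 10 made up 78.5%.

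The steps ran from 0.75 to 7.11 with a median of 1.55. In 48 of the 49 miRNAs the lowest Molino library lay above the highest of the 9 others. Among all 503 miRNAs this held for 100, or 19.9%, and since the rule used these same libraries, nothing is read from the difference. The exception was astmex-miR-494, at 1.43, 3.87, and 3.50 CPM in Molino. Molino replicate 1 was thereby at the level of Pachón replicate 1 (1.43 CPM) and Tinaja replicate 3 (1.45 CPM), and this miRNA was named for that overlap after its values were seen. Another 20 miRNAs had Molino at least 0.7 above the next morph but a wider gap among the other morphs, and they are not members.

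**Figure D1:**
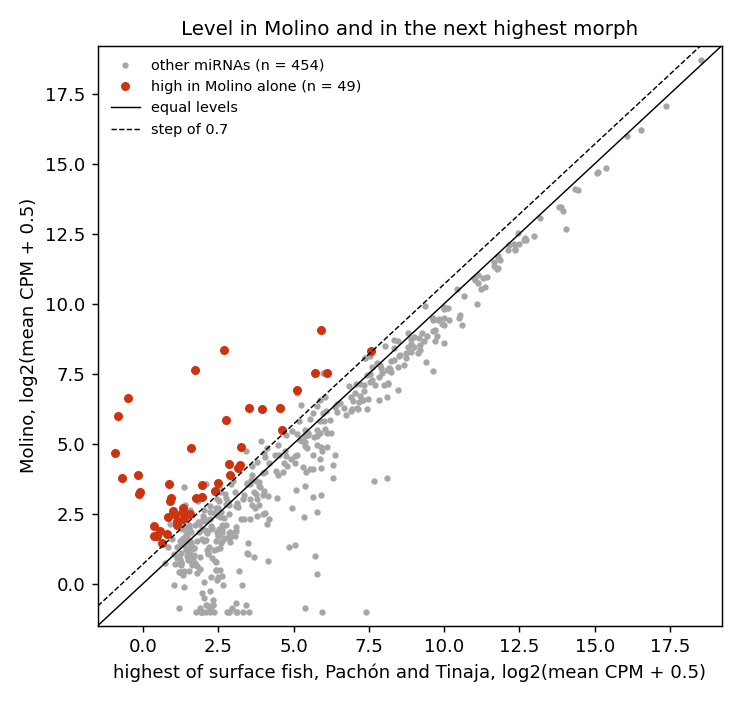
Level in Molino against the highest level among surface fish, Pachón, and Tinaja, both as log2(mean CPM + 0.5), 1 point for each of the 503 miRNAs past the count minimum. The solid line marks equal levels and the dashed line a step of 0.7. The 49 members (red) lie above the dashed line and up to 7.11 above the solid line, most of them at low levels. Grey points above the dashed line have a wider gap elsewhere.

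A first group was close to absent outside Molino. For astmex-miR-276, astmex-miR-314, and astmex-miR-396, all 9 other libraries held at most 3 counts. astmex-miR-276 had 527, 465, and 507 counts in Molino, none in surface fish, 0, 0, and 2 in Pachón, and 2, 0, and 0 in Tinaja. Its mean in Molino was 62.6 ± 5.41 CPM (SD, n = 3), at least 430.1-fold higher than in surface fish, with 3 counts over the morph taken as the limit. From the summed counts, the ratio was 1164 to Pachón (95% exact interval from counting 322 to 9623) and 1082 to Tinaja (299 to 8940). The step of 6.80 says less than these ratios, because the added 0.5 CPM sets the level of a miRNA at 0. It was 8.56 with 0.1 CPM added and 4.97 with 2 CPM.

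astmex-miR-314 had 180, 231, and 192 counts in Molino, or 25.2 ± 3.18 CPM, and a single count in 1 Pachón library among the 9 others. It was at least 173-fold higher in Molino than in surface fish and at least 290.1-fold higher than in Tinaja. astmex-miR-396 had 119, 107, and 89 counts in Molino, or 13.2 ± 2.37 CPM (SD, n = 3), and 2 counts in surface fish replicate 3 as its only others. The limits were at least 163-fold over Pachón and at least 152-fold over Tinaja, and the ratio to surface fish was 136 (95% exact interval 37.2 to 1124). In each of these miRNAs, every Molino library lay far above every other library.

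The widest step of all, 7.11, belonged to astmex-miR-243. Its Molino libraries held 784, 827, and 739 counts, those of surface fish 0, 1, and 1, those of Pachón 1, 4, and 3, and those of Tinaja 0, 1, and 2. In rank by mean CPM among the 683 miRNAs, it stood at 135 in Molino and at 628 to 633 in the other morphs. The ratio to Pachón, the next morph, was 456 (95% exact interval 231 to 1058). The ratios to surface fish and Tinaja, 1011 (280 to 8357) and 1131 (386 to 5486), had wide intervals from their few counts.

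Other members were also near 0 elsewhere. astmex-miR-398 had 127, 104, and 109 counts in Molino, 6, 2, and 1 in surface fish, none in Pachón, and 1, 2, and 3 in Tinaja, a step of 4.04. astmex-miR-442 had 85, 66, and 59 counts in Molino against 0 to 6 in the 9 others, and astmex-miR-429 had 60, 79, and 79 against 0 to 9. Their steps were 3.36 and 3.34. Each of these 3 was at or under 3 counts throughout at least 1 other morph. This was Pachón for astmex-miR-429, Tinaja for astmex-miR-442, and both Pachón and Tinaja for astmex-miR-398. In all, 10 members met this limit in at least 1 other morph: 3 in every other morph, 2 in exactly 2, and 5 in exactly 1. By morph, this was the case for 4 members in surface fish, 6 in Pachón, and 8 in Tinaja. In Molino the rule itself kept such miRNAs out, and every member had at least 11 counts in each library there. The same counts were not made over all miRNAs past the count minimum, so nothing is read from these numbers.

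**Figure D2:**
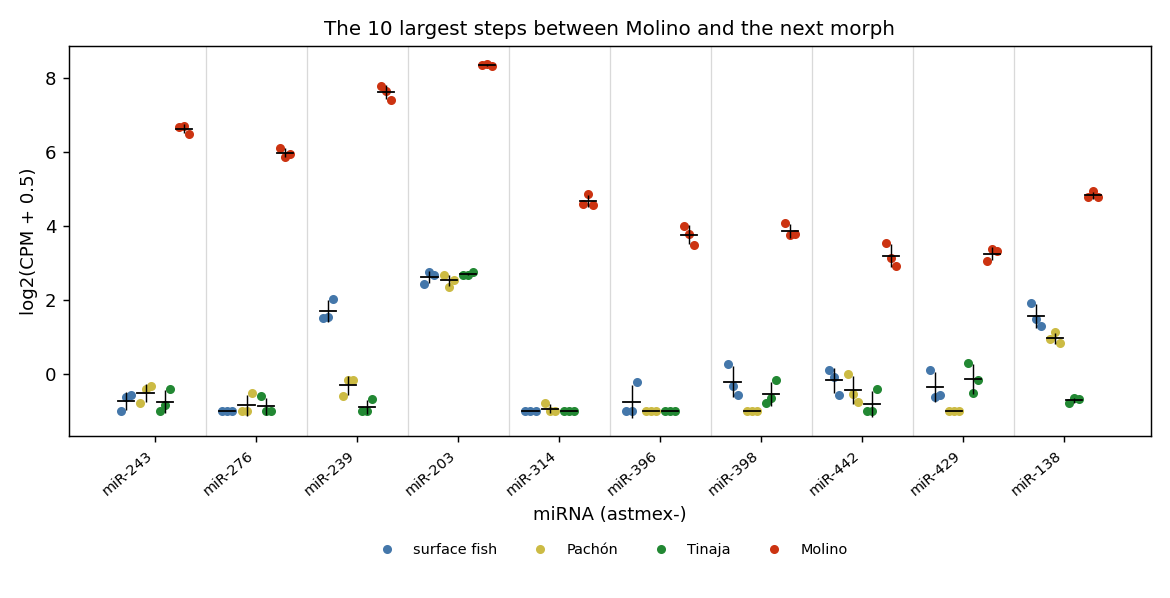
log2(CPM + 0.5) in each of the 12 libraries for the 10 members with the widest steps, points being libraries and black bars the mean ± SD of 3 libraries per morph. The Molino points lie above all others in each miRNA, and a value of −1 stands for no counts.

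A second group was well detected in every morph and still far higher in Molino. astmex-miR-203 was the clearest case, at 325, 332, and 319.7 CPM in Molino against 4.92, 6.25, and 5.96 in surface fish, 5.87, 4.65, and 5.38 in Pachón, and 5.91, 5.93, and 6.21 in Tinaja. The 9 other libraries thus lay close together. Its mean in Molino was 54.1 times that in Tinaja, the next morph. astmex-miR-256 had the same form at lower levels, with 85.6, 76.4, and 69.1 CPM in Molino and 7.77 to 14.8 CPM in the 9 others, 6.96 times the mean of surface fish.

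The most abundant member in Molino was astmex-miR-205, at 575, 572, and 449 CPM, a mean of 532 ± 72.0 (SD, n = 3). It was at 54.3, 62.6, and 63.0 CPM in surface fish, 59.9, 50.6, and 59.7 in Pachón, and 10.5, 8.38, and 10.7 in Tinaja. Its rank was 62 in Molino, 145 in surface fish, 152 in Pachón, and 238 in Tinaja. Molino was 8.87 times the mean of surface fish, and the level in Tinaja formed a further, lower tier.

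astmex-miR-239, with a step of 5.90, was at 220.1, 199, and 169 CPM in Molino. In surface fish it was at 2.34, 2.44, and 3.61 CPM, and the counts were 2, 6, and 4 in the Pachón libraries and 0, 0, and 1 in those of Tinaja. Its rank of 106 in Molino compared with 338, 604, and 650 in surface fish, Pachón, and Tinaja. astmex-miR-138 was also unequal among the other morphs, at 26.8, 30.2, and 26.8 CPM in Molino, 3.28, 2.29, and 1.99 in surface fish, 1.43, 1.70, and 1.30 in Pachón, and 0.0809 to 0.136 in Tinaja. astmex-miR-269 followed the order of astmex-miR-205, with 60.0, 54.8, and 56.6 CPM in Molino, 5.94 to 6.68 in surface fish, 5.08 to 7.46 in Pachón, but 0.682 to 1.78 in Tinaja.

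The other abundant members had narrower steps. astmex-miR-105 was at 199.5, 166, and 179.7 CPM in Molino and 35.5 to 63.7 CPM in the 9 others, a step of 1.80 and 3.50 times the mean of Tinaja. astmex-miR-128 was at 85.1, 71.4, and 76.4 CPM against 11.7 to 24.9 CPM, a step of 1.72. astmex-miR-241 was at 124, 116, and 118 CPM, and its next morph was Pachón at 31.8, 32.9, and 38.5 CPM, followed by surface fish (9.57 to 15.0 CPM) and Tinaja (7.04 to 11.6 CPM). All 3 had groups of libraries that did not overlap between Molino and the rest.

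astmex-miR-219 varied more. It was at 220.1, 193, and 132 CPM in Molino, 57.7, 61.1, and 81.6 in surface fish, 25.0, 39.4, and 30.7 in Pachón, and 41.7, 69.5, and 95.4 in Tinaja. The lowest Molino library still lay above the highest Tinaja library, and the step was 1.39. astmex-miR-255 varied least between the Molino libraries, at 75.1, 74.6, and 74.0 CPM, while Pachón ranged from 13.4 to 16.1 CPM, Tinaja from 8.19 to 12.1 CPM, and surface fish from 4.69 to 8.08 CPM.

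By width of the step, the prefix astmex- being left out, 12 members had a step of at least 3: miR-243, miR-276, miR-239, miR-203, miR-314, miR-396, miR-398, miR-442, miR-429, miR-138, miR-205, and miR-269. Another 5 had a step of 2 to 3, namely miR-256, miR-391, miR-255, miR-446, and miR-443. A step of 1 to 2 was found for 23: miR-105, miR-241, miR-128, miR-519, miR-286, miR-172, miR-342, miR-402, miR-444, miR-309, miR-219, miR-384, miR-461, miR-457, miR-315, miR-530, miR-341, miR-364, miR-454, miR-335, miR-308, miR-293, and miR-434. The remaining 9, with a step under 1, were miR-312, miR-494, miR-430, miR-482, miR-437, miR-343, miR-132, miR-466, and miR-202. The 27 members not chosen for a description of their own were scarce, with means of 2.72 to 18.7 CPM in Molino and a median of 5.60 CPM, against medians of 1.51, 1.41, and 1.39 CPM in surface fish, Pachón, and Tinaja. Their means in Molino were 1.98 to 8.60 times that of the next morph, with a median of 2.68 times. No 2 members had the same counts in all 12 libraries. Reads shared between similar miRNAs could not be traced without the sequences.

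**Figure D3:**
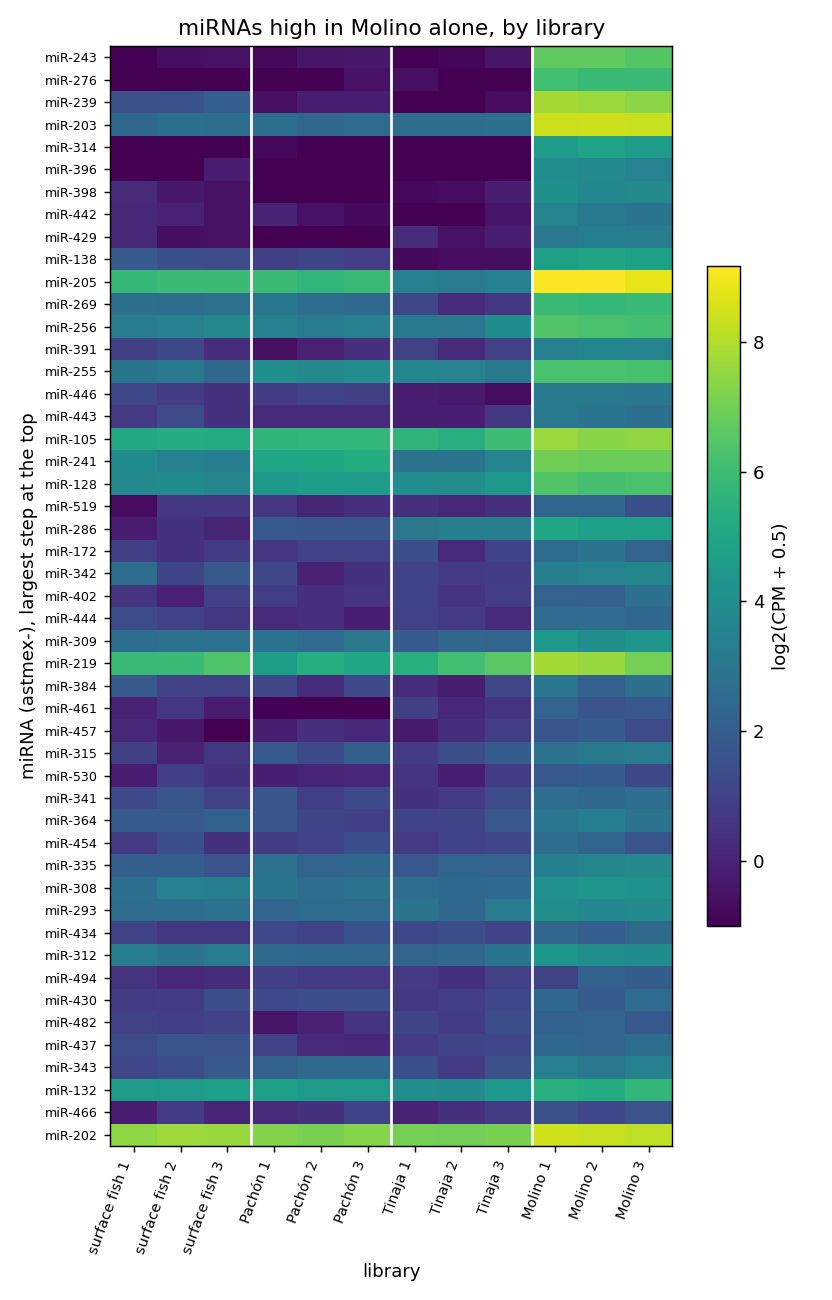
log2(CPM + 0.5) of the 49 members (rows, widest step at the top) in the 12 libraries (columns, grouped by morph). The 3 Molino columns are brighter than the others in each row but miR-494, from the widest step of 7.11 at the top to 0.75 at the bottom.

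The members nearest the limit of 0.7 show how gradual the lower end is. astmex-miR-202 had the narrowest step, 0.75, at 319 ± 26.7 CPM in Molino and 189 ± 16.7 CPM in surface fish, 1.69 times as much. astmex-miR-466 (0.80) had 2.21 ± 0.412 CPM in Molino and 1.06 ± 0.478 CPM in Pachón, and astmex-miR-132 (0.90) at 44.9 ± 7.07 CPM against 23.8 ± 2.16 CPM in surface fish. Just outside lay astmex-miR-230, with a step of 0.69 and 93.9 ± 6.36 CPM in Molino against 58.1 ± 3.86 CPM in Pachón (SD, n = 3). astmex-miR-441 followed at 0.65, with 3.37 ± 1.05 CPM against 1.96 ± 0.315 CPM in Tinaja. astmex-miR-220, at 0.62, had 100.3 ± 6.71 CPM against 65.0 ± 0.179 CPM in surface fish. Between the narrowest member and the first miRNA outside, the level ratios hardly differed.

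By mean count over the 12 libraries, members tended toward low abundance. That mean takes in the 9 other libraries, where the rule itself placed the members below Molino. The choice thus set part of this, how large a part was not tested, and nothing is read from it. Of the 49, 35 (71.4%) had a mean of 10 to 100 counts per library, compared with 256 of the 503 miRNAs (50.9%), and 2 (4.08%), astmex-miR-202 and astmex-miR-205, reached a mean of 1000, compared with 132 (26.2%). The median of the mean count was 33.2 for the members and 95.7 for the 503. Applied to the other morphs, the same rule gave lists of like abundance, with medians of 22.0 counts for those high in surface fish alone, 30.9 in Pachón alone, and 29.7 in Tinaja alone. A step is measured less exactly at low counts, and whether this moved the make-up of the list was not tested.

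The spread between replicate libraries was no part of the rule. The median SD of log2(CPM + 0.5) over the members was 0.19 in Molino, 0.31 in surface fish, 0.19 in Pachón, and 0.30 in Tinaja, beside 0.16, 0.16, 0.14, and 0.22 over the 503 miRNAs. The members were scarcer than the 503 by mean count over the 12 libraries, so these SDs do not compare miRNAs of like abundance. The largest SD in Molino was 0.65. Molino replicate 1 had the highest of the 3 Molino values in 24 members, replicate 2 in 15, and replicate 3 in 10, and replicate 1 was also the shallowest Molino library. Its TMM factor, by which edgeR rescales a library size, was 1.03, beside 0.95 and 0.94 for the other two. The part of depth and scaling in this order was not tested.

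The step was also read in libraries that had no part in the choice, as a description. When miRNAs were chosen from the libraries numbered 2 and 3, 45 were found, and in 44 of them Molino was the highest of the 4 libraries numbered 1, with a median step of 1.57. With number 2 held out, 47 were chosen and Molino was highest in all 47, with a median step of 1.56. With number 3 held out, 54 were chosen and Molino was highest in 52, with a median step of 1.25. The held-out step was at least 0.7 in 39, 39, and 41 of them. The exceptions, astmex-miR-550, astmex-miR-479, and astmex-miR-362, were named for this after their values were seen, and none of them is among the 49. A shared number does not tie libraries of different morphs to each other, and held-out libraries may come from the same pool as the others of their morph. How often Molino was highest among all miRNAs in the held-out libraries was not counted. The numbers are therefore no independent support for the list.

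**Figure D4:**
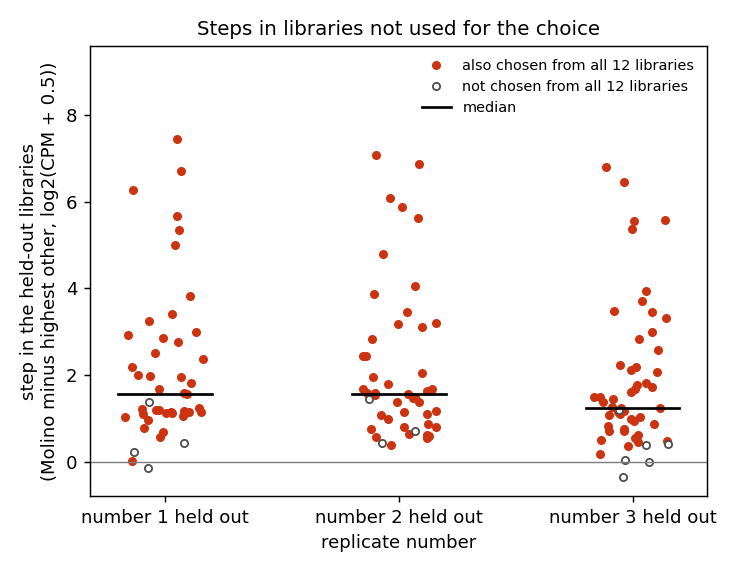
Step in the held-out libraries (Molino minus the highest of the other 3 morphs, log2(CPM + 0.5), 1 library per morph) for the miRNAs chosen from the other 2 replicate numbers: 45, 47, and 54 points. Medians (bars) were 1.57, 1.56, and 1.25, and the 3 points below 0 are open, that is, not among the 49 members.

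Differences of the members among surface fish, Pachón, and Tinaja were tested by the quasi-likelihood method of edgeR on the counts of all 12 libraries, with p-values adjusted over all 683 miRNAs by the Benjamini−Hochberg method. A miRNA was called different when its adjusted p was under 0.05 and its level differed by 2-fold or more. The rule bears on these contrasts too, since every gap among these morphs had to be narrower than the step, so the numbers are set beside those of all miRNAs and read no further. In Pachón against surface fish, 15 of the 49 members (30.6%) were called, compared with 29.7% of all 683 miRNAs and 29.8% of the 503. In Tinaja against surface fish it was 10 (20.4%), compared with 28.7% of the 683 and 27.6% of the 503, and in Tinaja against Pachón 14 (28.6%), compared with 24.9% of either. At least 1 of the 3 contrasts was called in 22 members (44.9%), compared with 45.2% of the 683 and 43.7% of the 503, and none in 27. Members that reached the count minimum mainly through Molino had few counts in these contrasts, and nothing is read from the shares.

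In Pachón against surface fish, 5 members (10.2%) were higher, compared with 16.0% of all 683 miRNAs, and 10 (20.4%) lower, compared with 13.8%. In Tinaja against surface fish, 1 member (2.04%) was higher, compared with 14.1%, and 9 (18.4%) lower, compared with 14.6%. In Tinaja against Pachón, 7 members (14.3%) were higher, compared with 10.7%, and 7 (14.3%) lower, compared with 14.2%. Nothing is read from these shares either. The median log2 fold change over the members was −0.04, −0.15, and −0.16 in these 3 contrasts, beside 0.03, 0.00, and −0.05 over all 683. The contrasts share libraries and are not independent of each other. Without surface fish replicate 1, the 15 members called in Pachón against surface fish became 10, and without Tinaja replicate 2, the 10 called in Tinaja against surface fish became 7. The order of the 3 morphs below Molino was mixed, with surface fish next to Molino in 21 members, Pachón in 17, and Tinaja in 11.

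Tinaja fell below both other morphs in several members. astmex-miR-205 was lower in Tinaja than in surface fish (log2FC −2.61, SE 0.12, edgeR adjusted p = 2.97e-11) and lower than in Pachón (log2FC −2.55, SE 0.11, edgeR adjusted p = 3.36e-11), log2FC being the fitted log2 fold change and SE its standard error. astmex-miR-269 showed the same pair of differences, with a log2FC of −2.40 (SE 0.26, edgeR adjusted p = 1.1e-06) and −2.39 (SE 0.24, edgeR adjusted p = 6.11e-07). So did astmex-miR-138, with a log2FC of −4.32 (SE 0.42, edgeR adjusted p = 3.11e-07) and −3.56 (SE 0.43, edgeR adjusted p = 4.25e-06). The Tinaja libraries held 1, 2, and 1 counts of astmex-miR-138. In each of these miRNAs, all 3 Tinaja libraries lay below the 6 of surface fish and Pachón.

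Surface fish and Pachón differed in other members. astmex-miR-286 was at 0.351, 0.915, and 0.542 CPM in surface fish, 3.02, 2.81, and 2.69 in Pachón, 7.69, 9.61, and 9.65 in Tinaja, and 33.3, 26.2, and 26.9 in Molino, so the 4 morphs formed separate tiers. It was higher in Pachón (log2FC 2.28, SE 0.32, edgeR adjusted p = 1.79e-05) and in Tinaja (log2FC 3.92, SE 0.27, edgeR adjusted p = 4.69e-09) than in surface fish, and higher in Tinaja than in Pachón (log2FC 1.63, SE 0.17, edgeR adjusted p = 9.99e-07). This miRNA met the rule narrowly, as its gap between surface fish and Pachón, 1.60, was nearly as wide as its step of 1.63, and it left the list without surface fish replicate 2, Pachón replicate 3, Tinaja replicate 1, or Molino replicate 1. astmex-miR-239 went the other way. It was lower in Pachón than in surface fish (log2FC −3.01, SE 0.34, edgeR adjusted p = 1.69e-06) and lower in Tinaja than in both surface fish (edgeR adjusted p = 8.74e-08) and Pachón (edgeR adjusted p = 0.0052). In Tinaja, 1 count in all gave a ratio of surface fish to Tinaja of 93.9 (95% exact interval from counting 16.2 to 3774). The ratio of Pachón to Tinaja, from 12 counts against 1, was 11.1 (1.65 to 477). astmex-miR-239 met the count minimum only through Molino, so nothing is read from its calls.

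Pachón stood out in astmex-miR-241, where it was higher than surface fish (log2FC 1.54, SE 0.15, edgeR adjusted p = 3.95e-07), and Tinaja was lower than Pachón (log2FC −2.07, SE 0.15, edgeR adjusted p = 1.24e-08). astmex-miR-255 was also higher in Pachón than in surface fish (log2FC 1.15, SE 0.20, edgeR adjusted p = 0.000144), with a log2FC of 0.99 (edgeR adjusted p = 0.000382) without surface fish replicate 3, short of the fold-change rule. Pachón was at 0 in all 3 libraries for astmex-miR-398, astmex-miR-429, and astmex-miR-461. All 3 were called lower in Pachón, but the other morphs held few counts of them, with 9, 7, and 13 in surface fish. They met the count minimum only through Molino, so nothing is read from these calls. Against 3 counts over the morph, surface fish was at least 5.41-fold, 4.21-fold, and 7.82-fold higher, respectively.

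**Figure D5:**
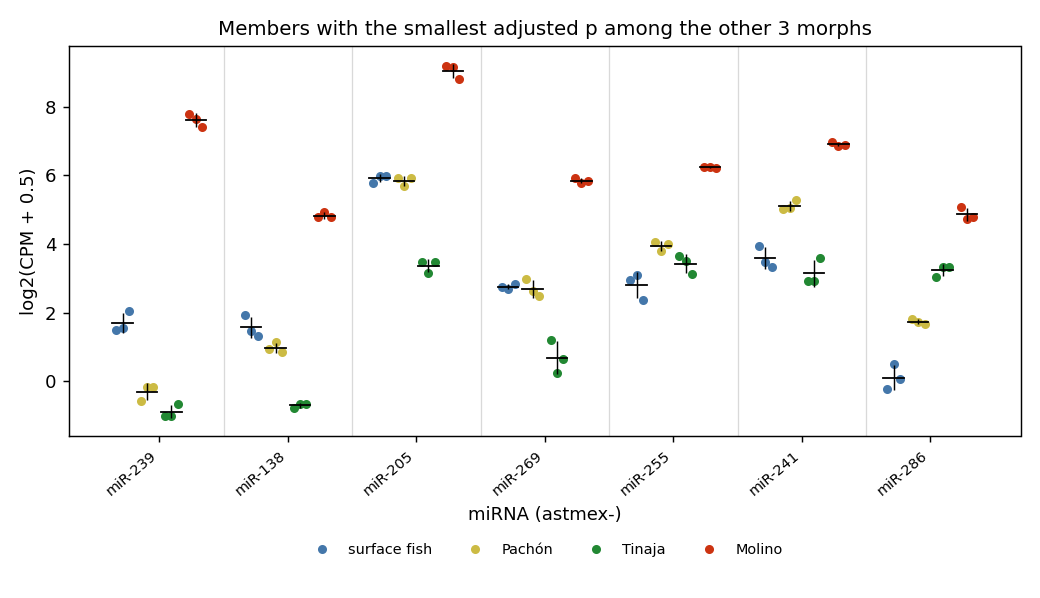
log2(CPM + 0.5) in the 12 libraries for the 7 members with the smallest adjusted p in the contrasts among surface fish, Pachón, and Tinaja, with the mean ± SD of 3 libraries per morph as black bars. By mean level, Tinaja lies lowest in miR-138, miR-205, miR-239, miR-241, and miR-269, surface fish lies lowest in miR-255 and miR-286, and Molino lies highest in all 7.

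The same rule applied to each other morph gave fewer miRNAs. Surface fish alone was high in 13, Pachón alone in 19, and Tinaja alone in 20, against 49 for Molino. Molino alone was low in 34, beside 24 for surface fish, 11 for Pachón, and 20 for Tinaja. Among the lists of high miRNAs, the median step was 1.55 for Molino, 1.35 for surface fish, 2.57 for Pachón, and 1.35 for Tinaja. Steps of at least 3 numbered 12 in the Molino list, 1 for surface fish, 5 for Pachón, and 3 for Tinaja. miRNAs with at most 3 counts in all 9 libraries of the other morphs numbered 3, 1, 4, and 1. These lists were not tested against each other.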

How the data were processed

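The authors trimmed adapters (cutadapt 2.5, per the labels), removed reads of other small RNA classes, called miRNAs with miRDeep2 from all libraries combined against the *A. mexicanus* 2.0 genome, and counted each library on the precursors. They deposited whole-number counts of 683 mature miRNAs in 12 libraries, without normalization. 0 value columns were left unused. CPM here uses the plain library totals. The members and lists were chosen with earlier results of these data known. Contrasts were fitted in R 4.3.3 with edgeR 4.0.16 (TMM, glmQLFit, glmQLFTest, no low-count filter, a mean per morph, 12 libraries), and the standard error is the log2 fold change divided by the root of F. The script was tested on simulated counts. Intervals are exact binomial at 95%. Alternatives were TMM or RLE scaling, other added constants and limits, medians, thinned counts, DESeq2 1.42.0, filters, the replicate block, and each library left out. The miRNAs described with values were the 10 widest steps, the 10 most abundant in Molino, the 3 members nearest the limit on each side, those at or under 3 counts in all 9 other libraries, and up to 4 per contrast with the smallest adjusted p. astmex-miR-461 and the exceptions named in the text fall outside this rule. Replicate numbers do not pair the libraries. No genome or sequence was used here.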

Additional observations from a re-analysis of the deposited data

How the results depend on the processing

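The number of members was 49 and lay between 43 and 51 with each library left out in turn, and 40 of the 49 were members in all 12 of these sets. Without Molino replicate 1 it was 43. The median step of 1.55 ranged from 1.43 to 1.64 and the number without overlap from 43 to 51. TMM scaling gave 52 members, including all 49, RLE scaling 47, and thinning to the shallowest library 44, of which 42 were shared. A minimum mean of 50 counts left 22 members, all 22 without overlap, with a median step of 1.79, since fewer miRNAs could enter. Adding 2 CPM in place of 0.5 lowered the median step to 1.26 by construction and kept 44 of the members. Of the 49, 18 were members under all 22 alternatives, among them the stricter limits on mean count and step. Under every change of scaling or added constant, with medians, and after thinning, 38 of the 49 were members. Members called in Pachón against surface fish, Tinaja against surface fish, and Tinaja against Pachón numbered 15, 10, and 14, and ranged from 10 to 15, 7 to 10, and 12 to 14 with a library left out. A minimum of 10 counts in every library left 17 members for testing and 4, 1, and 4 calls, and adjusted p alone gave 20 in Tinaja against surface fish. With the replicate number as a block the calls were 15, 11, and 14. The numbers do not pair the libraries: deviations of same-numbered libraries correlated with a median r of −0.00889 over 18 pairs (range −0.181 to 0.148). Repeats were made for 12 calls, picked as up to 4 per contrast with the smallest adjusted p. Of 221 repeats of these calls, 220 stayed past both thresholds, and repeats in which a filter removed the miRNA were not counted. Other calls given in the text were not among the 12. These include the calls of astmex-miR-398, astmex-miR-429, and astmex-miR-461, and that of astmex-miR-239 in Tinaja against Pachón. No step of a described member changed sign, but 46 of 396 repeated step values moved by 1 SD of the Molino libraries or more. The step uses only Molino and the highest other morph, so leaving out a library of another morph often could not move it. Members had also been chosen for a step of at least 0.7. Both numbers therefore say little about stability. In checks chosen after seeing the data, 12 members in place of 10 were at or under 3 counts throughout another morph after thinning, and the median SD in Molino was 0.18 with TMM scaling. Low counts limit the fold changes of the 35 members with a mean under 100 counts. They also limit those of members with a higher mean that were near 0 outside Molino. These include astmex-miR-243, astmex-miR-276, and, in Pachón and Tinaja, astmex-miR-239.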
